A study of Mus musculus with 6 samples.

Results

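The clustered histone genes are the genes for the core histones H2A, H2B, H3 and H4 and the linker histone H1 that lie side by side in the mouse genome. Their members were taken as every gene of the expression table whose name starts with Hist1h, Hist2h, Hist3h or Hist4h, which gave 67 of 21700 genes. There were 6 H1, 18 H2A, 18 H2B, 12 H3 and 13 H4 genes. The Hist1 cluster held 54 of them at chr13:21715763-23934851, the Hist2 cluster 10 at chr3:96219865-96270132, Hist3 the pair at chr11:58948920-58956830, and Hist4 the single gene at chr6:136801553-136804415 (mm10).

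The cells were biliary epithelial cells, which line the bile ducts, sorted by flow cytometry from mouse liver after hepatocytes had been spun out. The pregnant group had 3 libraries from WT C57BL/6 females at dpc8, meaning day 8 after mating, and the non-pregnant group had 3 libraries from WT C57BL/6 females. Neither the age of the mice, nor how many mice gave a library, nor the antibodies of the sorting gate are given in the sources used here. The p-values below therefore measure the spread between these libraries, which may be technical. The comparison asks how these cells differ in early pregnancy.

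Cells need a new set of histones whenever they copy their DNA, and the clustered genes supply it. Core histones form the spool on which DNA is wound, and H1 binds the DNA that enters and leaves the spool. Messages of clustered genes normally have no introns and no poly(A) tail, and end instead just after a short hairpin, the histone stem-loop, which the stem-loop binding protein holds. They are made mostly in S phase and are destroyed when replication stops, although some clustered genes also give polyadenylated messages in cells that do not divide. These libraries were made from total RNA depleted of ribosomal RNA, so messages without a poly(A) tail could enter them.

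The stem-loops are shown because they mark the message end that sets this family apart, and because H4 genes differed in them from all other families. A stem-loop of 16 letters, a 6-base stem around a 4-base loop, was found in the GENCODE vM21 transcripts of 46 of the 67 members, between 21 and 58 bases after the coding end. The search used a fixed pattern of letters, so a hairpin outside it would be missed. Within that pattern there were 8 spellings. Each sequence below runs 5′ to 3′ in the sense of the message, with the stem-loop in capitals and 5 bases on either side (mm10).
Hist1h3b, chr13:23752815-23752840, plus strand: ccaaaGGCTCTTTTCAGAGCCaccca
Hist1h1c, chr13:23739507-23739532, plus strand: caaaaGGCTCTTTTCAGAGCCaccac
Hist2h3c2, chr3:96238480-96238505, minus strand: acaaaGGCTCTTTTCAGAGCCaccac
Hist1h3c, chr13:23745042-23745067, minus strand: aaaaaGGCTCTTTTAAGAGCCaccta
Hist1h3g, chr13:23535884-23535909, plus strand: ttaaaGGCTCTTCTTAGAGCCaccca
Hist1h4h, chr13:23531453-23531478, plus strand: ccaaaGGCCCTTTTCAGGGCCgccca
Hist1h4b, chr13:23757361-23757386, plus strand: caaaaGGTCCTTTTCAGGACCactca
The spelling of Hist1h3b, Hist1h1c and Hist2h3c2 was the commonest, with 26 members. That of Hist1h3c had 6 members, that of Hist1h4h 7, that of Hist1h4b 2 (the other was Hist1h4j), and that of Hist1h3g stood alone. All 12 H4 genes with a stem-loop had a stem that began GGCCC or GGTCC, and 0 of the 34 genes of other families did. Of the 21 members without a match to the pattern, 17 were annotated to end less than 60 bases after the coding end, where the annotation may stop short of a stem-loop. Hist1h2bc, Hist2h2be, Hist1h2bq and Hist1h2br had longer annotated ends, and a hairpin of other letters was not searched for in them.

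The promoters of 62 members were matched in RefSeq (GRCm38.p6), as windows from 250 bases before the start to 50 after it. Motifs were searched on both strands and set against the 26963 other RefSeq promoters. The octamer ATTTGCAT, known as a site for Pou2f1 (Oct-1) in H2B promoters, was in 7 of 18 H2A windows (38.9%) and 7 of 16 H2B windows (43.8%), against 1.92% of other promoters, and in 0 H1, H3 or H4 windows. Windows of H2A and H2B neighbours that start close together overlap, so the same site can count in both families. The octamer did so for Hist1h2aa with Hist1h2ba, Hist1h2ae with Hist1h2bg, and Hist1h2ah with Hist1h2bk. CCAAT and TATAAA sites in such overlaps were likewise counted in both families. CCAAT was in every H1, H2A, H2B and H3 window but in 3 of 12 H4 windows (25.0%), against 41.0% of other promoters. TATAAA was in 35 of 62 (56.5%), against 15.6%. By family it was in 4 of 6 H1 windows (66.7%), 11 of 18 H2A (61.1%) and 8 of 16 H2B (50.0%). It was in 4 of 10 H3 windows (40.0%) and 8 of 12 H4 windows (66.7%). AAACACA, the H1 box, chosen after the other counts were seen, was in 5 of 6 H1 windows (83.3%) and in 8.21% of other promoters. The 150 bases before the start of an H1, an H2B and an H4 gene are given as single examples. These motifs are in capitals (ATTGG is CCAAT on the other strand). The H4 example is not typical for TATAAA, which most H4 windows held.
Hist1h1b, chr13:21780626-21780775, minus strand: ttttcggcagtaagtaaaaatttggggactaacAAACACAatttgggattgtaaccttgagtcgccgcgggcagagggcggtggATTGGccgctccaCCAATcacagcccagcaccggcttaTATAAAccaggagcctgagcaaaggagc
Hist1h2bb, chr13:23746584-23746733, plus strand: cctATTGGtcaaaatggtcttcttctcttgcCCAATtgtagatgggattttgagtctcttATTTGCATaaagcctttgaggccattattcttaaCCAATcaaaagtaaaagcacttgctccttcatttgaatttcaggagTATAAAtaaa
Hist1h4h, chr13:23530894-23531043, plus strand: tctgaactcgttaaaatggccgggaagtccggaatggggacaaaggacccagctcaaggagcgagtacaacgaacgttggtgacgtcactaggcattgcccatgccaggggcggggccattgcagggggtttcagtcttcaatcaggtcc
Hist1h1b held all but the octamer, Hist1h2bb held all but the H1 box, and the stretch of Hist1h4h held none of the 4.

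The libraries held between 25047888 and 35083751 fragments, and between 15928 and 16245 genes were above 0 in each. All 8 biliary markers, Epcam and Sox9 among them, were detected, with summed levels of 6710 to 7200 FPKM in pregnant and 4940 to 6250 FPKM in non-pregnant libraries. FPKM counts the fragments on a gene for each kilobase of its exons, after scaling for library depth. Non-pregnant library 3 stood apart, with 35.8% of all tested genes at their highest there, and non-pregnant library 2 stood out in endothelial markers, whose summed level was 159 FPKM there and 10.9 to 23.1 FPKM in the other 5 libraries. Macrophage markers summed to 204, 170 and 118 FPKM in pregnant libraries 1 to 3, against 82.9, 92.3 and 58.0 FPKM in non-pregnant libraries 1 to 3, and all 12 tested had a log2 change above 0, with a median of 2.38 and 5 past the threshold (limma adjusted p under 0.05), as were 0.0876% of all genes. Cd68 and Csf1r, at 38.1 and 32.5 FPKM on average in non-pregnant libraries, make up most of the sums there. Of the 14 listed, none was at 0 in all libraries, and the defining genes Clec4f, Timd4 and Marco were at most 1.51 FPKM in the non-pregnant libraries. Hepatocyte markers summed to 2490 to 2850 FPKM in pregnant and 2880 to 3610 FPKM in non-pregnant libraries, with Ahsg lower in pregnancy, at 186 ± 39.7 FPKM in pregnant and 561 ± 89.7 FPKM in non-pregnant libraries (SD, n = 3 each; limma adjusted p = 0.0368). Alb made up most of these sums, at 2150 FPKM on average in pregnant and 2330 FPKM in non-pregnant libraries. Apoa1, Fgb, Cps1 and Cyp3a11 of the same list averaged at most 5.27 FPKM in either group. Leukocyte markers summed to at most 4.05 FPKM and erythroid markers to at most 0.835 FPKM in any library. In sorted cells sequenced in bulk, a change in the number of cells of a type and a change in RNA per cell cannot be told apart.

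The summed level of the clustered histones did not differ between pregnant and non-pregnant libraries by more than the spread between libraries. Their levels summed to 473, 438 and 420 FPKM in pregnant libraries 1 to 3, against 430, 417 and 460 FPKM in non-pregnant libraries 1 to 3. The groups overlapped, and the mean was 444 ± 26.7 FPKM in pregnant and 436 ± 22.4 FPKM in non-pregnant libraries (SD, n = 3 each), a ratio of 1.02. These fragments were 0.0362% to 0.0406% of all fragments in pregnant and 0.0381% to 0.0429% in non-pregnant libraries. The family is thus a small part of each library, and H4 genes made up 48.2% of its summed level, H2B 16.8%, H3 12.7%, H1 12.5% and H2A 9.82%.

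**Figure D1:**
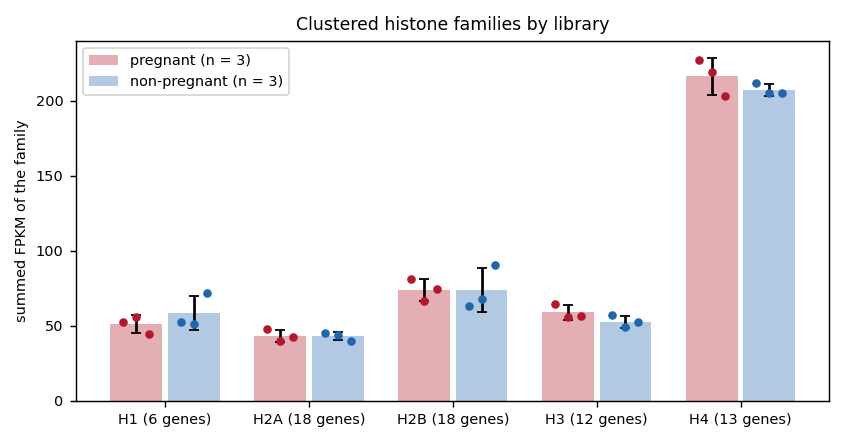
Summed FPKM of each histone family (vertical axis) in the 3 pregnant libraries, left, and the 3 non-pregnant libraries, right, with one point per library and bars for the group mean ± SD. In every family the points of the groups overlap, and the H4 sums of 203 to 227 FPKM lie far above those of the other families.

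By family, H3 genes summed to 64.4, 56.1 and 56.2 FPKM in pregnant and 56.9, 48.9 and 52.6 FPKM in non-pregnant libraries, a ratio of 1.12. H4 genes summed to 227, 219 and 203 FPKM in pregnant and 212, 205 and 205 FPKM in non-pregnant libraries, a ratio of 1.04. H1 genes summed to 52.5, 56.1 and 44.5 FPKM in pregnant and 52.7, 50.9 and 71.8 FPKM in non-pregnant libraries, a ratio of 0.873. In H1 and H2B the highest sum was in non-pregnant library 3. H2A sums averaged 43.3 ± 3.85 FPKM in pregnant and 43.0 ± 2.67 FPKM in non-pregnant libraries (SD, n = 3 each), and H2B sums 73.9 ± 7.34 FPKM in pregnant and 73.9 ± 14.8 FPKM in non-pregnant libraries.

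Levels among the 67 members ran from 0 to 63.7 FPKM on average over the 6 libraries. Hist1h4h was the highest, at 66.1 FPKM on average in pregnant and 61.4 FPKM in non-pregnant libraries, followed by Hist1h4d at 56.6 and 55.9 FPKM. These 2 genes held 27.3% of the summed level and the 10 highest members 63.2%. The next were the H4 genes Hist1h4c and Hist1h4a and the linker histone gene Hist1h1c, at 29.0, 21.3 and 26.4 FPKM over all 6 libraries. Among the other families the highest members were Hist2h2ac at 18.3 FPKM for H2A, Hist1h3e at 17.3 FPKM for H3 and Hist2h2bb at 16.9 FPKM for H2B.

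At the low end, 6 members were at 0 in all 6 libraries, namely Hist1h2aa, Hist1h2ao, Hist1h2ap, Hist1h2bq, Hist1h2br and Hist1h4m. A count of 0 allows up to 3 fragments in a library, which for Hist1h2aa is 0.218 to 0.304 FPKM. Another 14 members averaged under 1 FPKM and, like those at 0, were not tested. The testis histones were among them, with Hist1h1t at 0.468 FPKM on average in pregnant and 0.488 FPKM in non-pregnant libraries and Hist1h2ba at 4 fragments over the pregnant and 0 over the non-pregnant libraries. Just under the limit of 1 FPKM were Hist1h2bf at 0.835 and Hist1h2an at 0.782 FPKM, and just over it Hist1h2ac at 1.02 and Hist1h2ae at 1.04 FPKM.

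**Figure D2:**
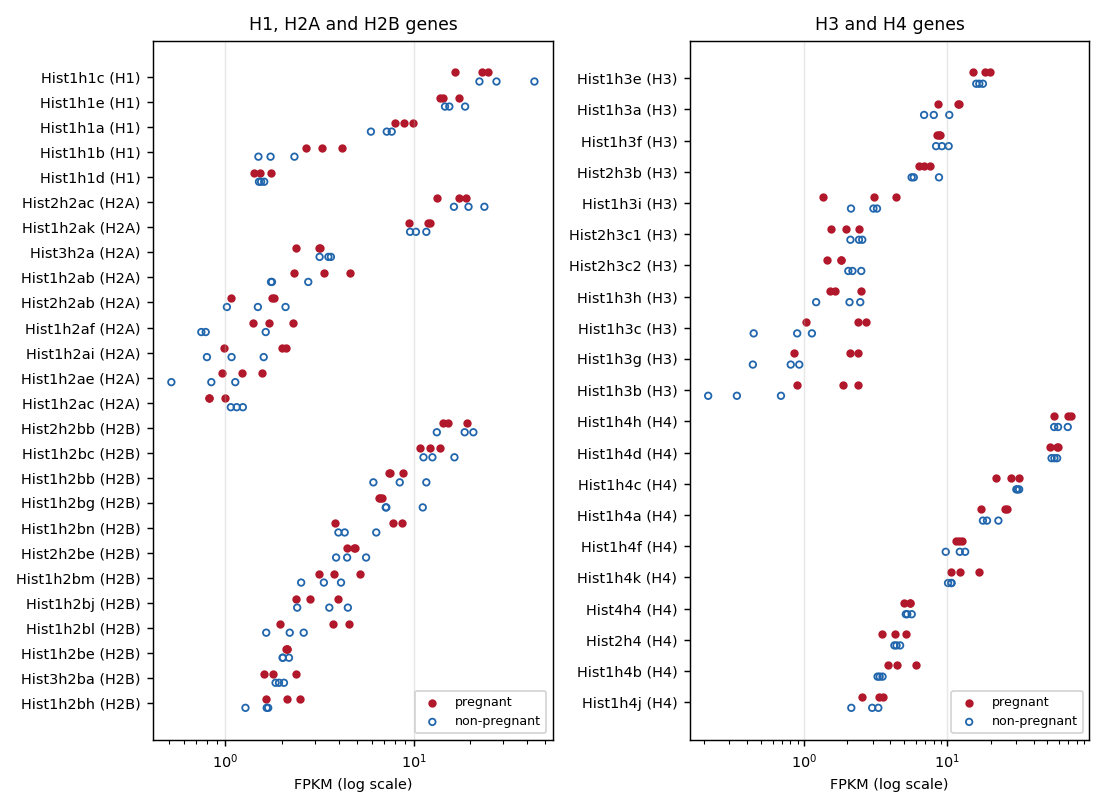
FPKM (horizontal log axis) of the 47 members that averaged at least 1 FPKM, 1 row per gene sorted by family and level, with 1 filled point per pregnant library and 1 open point per non-pregnant library. The H4 genes Hist1h4h and Hist1h4d lead, with 51.9 to 73.3 FPKM in pregnant libraries, and the points of Hist1h3b and Hist1h1b do not overlap between groups.

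Low levels went together with shared sequence. Coding sequences within a core histone family are mostly much alike, with a median identity between members of the common length of 97.6% in H3, 96.4% in H2A, 94.8% in H2B and 93.9% in H4. The lowest identities were 93.7% in H3, 77.6% in H2A, 82.9% in H2B and 85.3% in H4. For H1 none was computed, because only 1 gene had the commonest length. A fragment from a stretch that members share can be placed on several genes. How the authors counted such fragments is not given in the sources used here. For each member the share of its 100-base windows found in no transcript of a gene elsewhere was counted over the GENCODE transcripts. Of the 10 members with under 15% of unique windows, 5 were at 0 in all libraries, 2 passed the filter and the highest averaged 1.89 FPKM. Of the 57 others, 1 was at 0 (Hist1h2aa, 100.0% unique) and 45 passed. Across the 67 genes, which share libraries and sequence, Spearman's rho between unique share and mean level was 0.446, given as a description. The level of a member with little unique sequence, such as Hist1h3h (8.0%) or Hist1h2ai (11.6%), is therefore uncertain. Some members also share their exons with overlapping genes. On the same strand these are Hist3h2a (with Trim17), Hist2h2bb (with Gm42743), Hist1h2ac (with Gm24991), and Hist2h2aa1 and Hist2h3c1 (with Gm20634). Hist1h1e and Hist1h2be overlap each other and Gm11398 on the same strand. On the opposite strand every H2A gene has such a neighbour, as do Hist1h4b, Hist2h2bb and Hist2h3b. Whether the counting used the strand is not given, so the reads of such neighbours cannot be told apart.

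**Figure D3:**
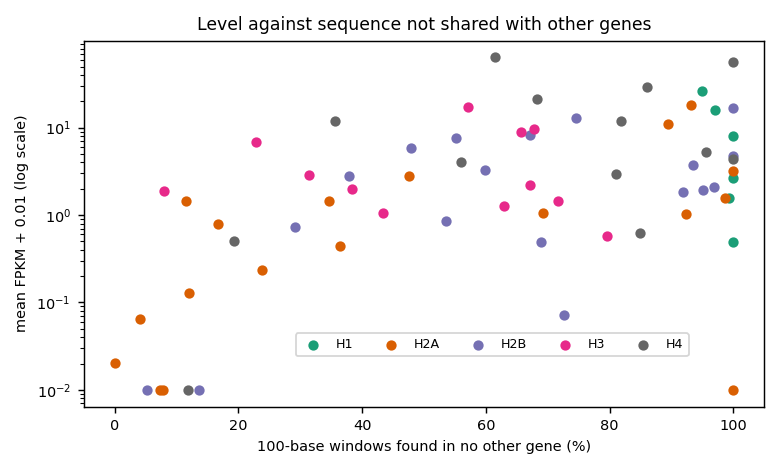
Mean FPKM of each of the 67 members over the 6 libraries (vertical log axis, 0.01 FPKM added so that genes at 0 can be drawn) against the percentage of its 100-base windows found in no transcript of a gene elsewhere (horizontal axis), with one point per gene coloured by family. Of the 10 members under 15%, 5 are at 0 and none exceeds 1.89 FPKM.

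No single histone gene passed the test between the groups. Of the 67 members, 47 averaged at least 1 FPKM over the 6 libraries and were tested, 5 H1, 9 H2A, 12 H2B, 11 H3 and 10 H4 genes. With limma on log2(FPKM + 1), 0 of the 47 passed an adjusted p of 0.05 (smallest adjusted p = 0.29), where 0.0876% of all 11412 tested genes did, 0.0613% upward and 0.0263% downward. At an unadjusted p under 0.05 there were 9 members (19.1%), against 13.4% of all genes, 8 of them higher in pregnancy (background 7.09%) and 1 lower (background 6.3%). The groups did not overlap for 4 members that were higher in pregnancy (background 9.9%) and for 3 that were lower (background 12.2%). Of the 47 log2 changes 27 were above 0, where 44.8% of all genes were, and their median was 0.03, against -0.02 over all genes. limma-voom on the recovered fragments called 0 members, but only 1 of all genes, so its 0 says little about the members. The 47 that passed the filter on low values are not all members. Fold changes understate low genes because 1 FPKM was added before the logarithm was taken.

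**Figure D4:**
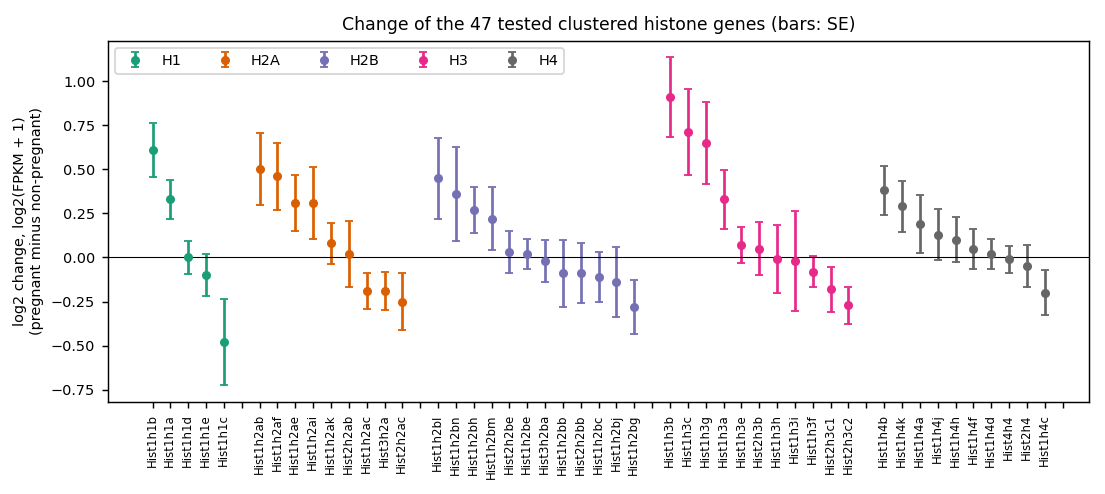
Log2 change in log2(FPKM + 1), pregnant minus non-pregnant, with its SE for each of the 47 tested members, grouped by family. Values lie between -0.48 (Hist1h1c) and 0.91 (Hist1h3b), and none passed the threshold.

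The 5 tested H1 genes did not move as one. Hist1h1b had 3.28, 2.7 and 4.15 FPKM in pregnant libraries, against 1.5, 1.74 and 2.33 FPKM in non-pregnant libraries. All pregnant values lay above all non-pregnant ones (log2 change 0.61 ± 0.153, SE; limma adjusted p = 0.29). Pooled over libraries there were 205 fragments in pregnant and 132 in non-pregnant ones, a depth-scaled ratio of 1.76 (95% counting interval 1.41 to 2.21). Hist1h1a, another linker histone gene, had 9.98, 8.87 and 8.0 FPKM in pregnant libraries, against 7.21, 5.94 and 7.66 FPKM in non-pregnant libraries, again without overlap (log2 change 0.33 ± 0.112, SE; limma adjusted p = 0.315). Hist1h1c, the highest H1 gene, had 23.2, 24.9 and 16.6 FPKM in pregnant libraries, against 27.6, 22.4 and 43.9 FPKM in non-pregnant libraries. Its groups overlapped, and non-pregnant library 3 was far above the rest (log2 change -0.48 ± 0.244, SE; limma adjusted p = 0.417). Without that library the log2 change was -0.22 (limma adjusted p = 0.625). Hist1h1d and Hist1h1e had log2 changes of 0.00 and -0.10, and the exons of Hist1h1e overlap those of Hist1h2be on the same strand.

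Among H3 genes Hist1h3b, Hist1h3c and Hist1h3g had the largest log2 changes, from low levels. They averaged 1.70, 2.03 and 1.77 FPKM in pregnant libraries, against 0.413, 0.821 and 0.721 FPKM in non-pregnant libraries, so they passed the filter of 1 FPKM only through the pregnant group, where a gene that passes in this way has to be higher. Hist1h3b (chr13:23752267-23752886) had 2.36, 0.887 and 1.85 FPKM in pregnant libraries, against 0.338, 0.213 and 0.687 FPKM in non-pregnant libraries. This was 39, 17 and 29 fragments against 6, 4 and 15, without overlap. The pooled ratio was 3.86 (95% counting interval 2.45 to 6.30) and the log2 change 0.91 ± 0.226 (SE; limma adjusted p = 0.29). Hist1h3c had 2.68, 1.03 and 2.38 FPKM in pregnant libraries, against 0.443, 0.892 and 1.13 FPKM in non-pregnant libraries. Pregnant library 2 lay below non-pregnant library 3, so the groups overlapped (log2 change 0.71 ± 0.244, SE; limma adjusted p = 0.319). Hist1h3g had 0.850, 2.38 and 2.09 FPKM in pregnant libraries, against 0.922, 0.437 and 0.804 FPKM in non-pregnant libraries, and pregnant library 1 lay within the non-pregnant range (log2 change 0.65 ± 0.234, SE; limma adjusted p = 0.327). Hist2h3c2 was lower instead, at 1.80, 1.81 and 1.43 FPKM in pregnant libraries, against 2.50, 2.17 and 2.03 FPKM in non-pregnant libraries, without overlap (log2 change -0.27 ± 0.105, SE; limma adjusted p = 0.351). H3 coding sequences of the common length are 93.7% to 99.8% identical, and the unique windows were 43.4% for Hist1h3b, 71.6% for Hist1h3c, 62.9% for Hist1h3g and 38.4% for Hist2h3c2. The H3 genes with higher levels had log2 changes of 0.07 for Hist1h3e, 0.33 for Hist1h3a, -0.08 for Hist1h3f and 0.05 for Hist2h3b. The lower ones Hist1h3h, Hist1h3i and Hist2h3c1 had -0.01, -0.02 and -0.18. Hist1h3d, which averaged too little to be tested, had 0.751 FPKM on average in pregnant and 0.386 FPKM in non-pregnant libraries and did not overlap between groups.

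None of the 10 tested H4 genes passed. Hist1h4h had 69.3, 73.3 and 55.6 FPKM in pregnant libraries, against 69.3, 59.3 and 55.7 FPKM in non-pregnant libraries, and Hist1h4d 59.2, 58.6 and 51.9 FPKM, against 53.4, 58.4 and 55.9 FPKM. Both overlapped between groups, with log2 changes of 0.10 ± 0.128 and 0.02 ± 0.0836 (SE). Hist1h4b, whose stem-loop spelling is shared with Hist1h4j alone, had 4.44, 3.83 and 6.07 FPKM in pregnant libraries, against 3.52, 3.25 and 3.36 FPKM in non-pregnant libraries. Its groups did not overlap (log2 change 0.38 ± 0.138, SE; limma adjusted p = 0.327), and an opposite-strand gene, 4930558J22Rik, overlaps its exons. Hist1h4j had a log2 change of 0.13 and groups that overlapped. Of the other H4 genes Hist1h4k had the largest change upward, 0.29, and Hist1h4c the largest downward, -0.20.

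H2A and H2B genes had median log2 changes of 0.08 and 0.00, and 0 of 21 passed. Hist1h2ab had 3.33, 2.33 and 4.59 FPKM in pregnant libraries, against 1.77, 1.75 and 2.76 FPKM in non-pregnant libraries. Hist1h2af had 1.41, 1.70 and 2.28 FPKM in pregnant libraries, against 0.787, 0.746 and 1.64 FPKM in non-pregnant libraries. Each overlapped between groups through non-pregnant library 3 (log2 changes 0.50 ± 0.204 and 0.46 ± 0.189, SE; limma adjusted p = 0.362 for both). Hist1h2bg had 6.62, 6.55 and 6.78 FPKM in pregnant libraries, against 7.17, 7.12 and 11.2 FPKM in non-pregnant libraries. It was lower in pregnancy without overlap (log2 change -0.28 ± 0.154, SE; limma adjusted p = 0.43), and its log2 change was -0.09 without non-pregnant library 3. Hist1h2ac, at 0.880 FPKM on average in pregnant and 1.15 FPKM in non-pregnant libraries, did not overlap either. Of the 12 H2B genes 6 were highest in non-pregnant library 3.

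Most H2A and H2B genes lie head to head, and the members of such a pair stood at different levels. There were 12 pairs with 175 to 305 bases between their starts. Hist1h2bc averaged 12.9 FPKM over the 6 libraries and its partner Hist1h2ac 1.02 FPKM, a 12.7-fold difference. Hist1h2bj stood 14.3-fold above Hist1h2ag and Hist1h2bg 7.26-fold above Hist1h2ae. The order was the other way for Hist2h2ac, 3.91-fold above Hist2h2be, and for Hist1h2ak, 1.87-fold above Hist1h2bn. These are ratios of FPKM, which is divided by exon length, and partners differ in length. Hist2h2ac has 520 exon bases and Hist2h2be 2620. In fragments Hist2h2be was the higher, with 1023 in pregnant and 1160 in non-pregnant libraries, against 720 and 962. Hist1h2bc (1156 bases) stayed above Hist1h2ac (2482 bases) in fragments, with 1191 and 1486 against 180 and 270. Both partners of 2 pairs, Hist1h2ao with Hist1h2bq and Hist1h2ap with Hist1h2br, were at 0. Partners also differ in unique sequence, with 23.8% of windows for Hist1h2ag and 59.9% for Hist1h2bj, and its part in the pair differences was not tested. Hist1h2ac is more unique than Hist1h2bc, at 92.3% and 74.6%.

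Members whose annotated message ends soon after the coding sequence stood higher in pregnancy than those annotated further. This split was chosen after the values were seen, and it is a description with no test. For the 27 tested members with under 200 annotated bases after the coding end the median log2 change was 0.29, with 21 above 0. For the 20 with 200 bases or more it was -0.06, with 6 above 0, where the median of all genes was -0.02. The limit had Hist1h2ae at 199 bases just under it and Hist1h2bg at 200 just over it. At a limit of 300 bases the medians were 0.22 over 29 and -0.06 over 18 members. Of the 9 members with an unadjusted p under 0.05 in limma, 8 had the short annotation and Hist2h3c2 the long one, where 13.4% of all genes had such a p. The split was chosen with these values known, so this count is no support for it. The short-ended members centred on their own means had medians of 0.19, -0.05 and 0.31 in pregnant libraries 1 to 3, against -0.19, -0.26 and -0.03 in non-pregnant libraries 1 to 3, so pregnant library 2 lay below non-pregnant library 3. The long-ended members had 0.01, -0.02 and -0.14, against 0.01, -0.02 and 0.06. Of the 27 short-ended members 8, 2 and 10 were highest in pregnant libraries 1, 2 and 3 (11.3%, 7.49% and 16.9% of all genes). In non-pregnant libraries 1, 2 and 3 the counts were 2, 1 and 4 (12.9%, 15.6% and 35.8% of all genes). By level, 12 of the 27 short-ended and 8 of the 20 long-ended members averaged under 3 FPKM. Over both sides, the 20 members under 3 FPKM had a median log2 change of 0.20, the 14 from 3 to 10 FPKM 0.01 and the 13 from 10 FPKM 0.02. By unique sequence, 12 of the 27 short-ended and 3 of the 20 long-ended members had under 60% of unique windows. The 13 members with 20% to 60% of unique windows had a median of 0.29 and the 32 with 60% or more one of 0.02. The parts of level and of unique sequence in the split were not tested. Of the short-ended members Hist1h3b, Hist1h3c, Hist1h3g and Hist1h2ae averaged 1 FPKM or more in the pregnant group alone, and of the long-ended ones Hist1h2ac did so in the non-pregnant group alone.

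**Figure D5:**
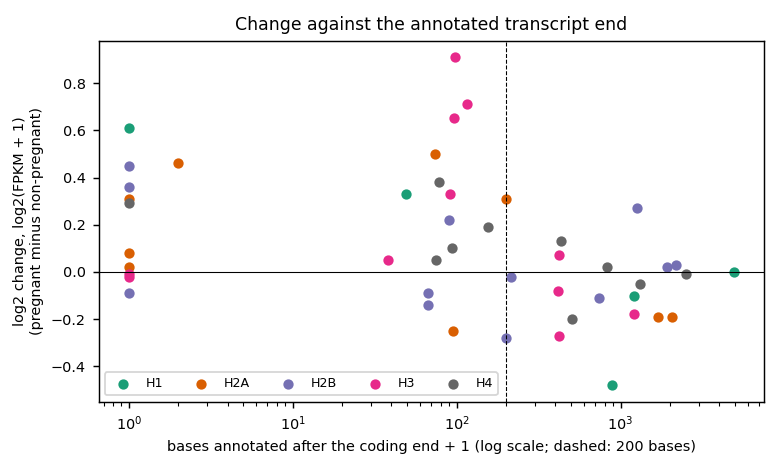
Log2 change of the 47 tested members (vertical axis, pregnant minus non-pregnant) by annotated bases after the coding end (horizontal log axis, 1 base added), coloured by family, with the limit of 200 bases dashed. The median is 0.29 under the limit and -0.06 from it on.

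The members known for polyadenylated messages in cells that do not divide, Hist1h1c, Hist1h2bc, Hist2h2be and Hist3h2a, had 0 of 4 called with limma (0 at an unadjusted p under 0.05) and a median log2 change of -0.15, with 1 above 0. Hist1h2bc had 12.3, 13.9 and 10.8 FPKM in pregnant libraries, against 11.3, 12.6 and 16.5 FPKM in non-pregnant libraries, and Hist3h2a 3.20, 3.15 and 2.37 FPKM, against 3.64, 3.17 and 3.53 FPKM. Both overlapped between groups. By cluster the median was 0.11 over the 36 tested Hist1 genes, -0.07 over the 8 Hist2 genes and -0.02 over the 3 Hist3 and Hist4 genes, as a description.

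The replacement histones, most of which cells also make outside S phase, had 0 of 10 tested genes called with limma (3 at an unadjusted p under 0.05, all higher, against 7.09% of all genes), 9 above 0, against 44.8% of all genes, and a median of 0.06. H3f3a, which encodes the variant H3.3, had 19.4, 17.4 and 17.7 FPKM in pregnant libraries, against 13.7, 14.6 and 15.4 FPKM in non-pregnant libraries, without overlap (log2 change 0.30 ± 0.0791, SE; limma adjusted p = 0.295). H3f3b, the other H3.3 gene, stood far higher, at 229 ± 3.87 FPKM in pregnant and 226 ± 20.4 FPKM in non-pregnant libraries (SD, n = 3 each). Its log2 change was 0.03 (limma adjusted p = 0.904). The linker histone gene H1fx averaged 5.59 ± 0.699 FPKM in pregnant and 3.61 ± 1.43 FPKM in non-pregnant libraries (SD, n = 3 each; limma adjusted p = 0.348). H2afy2, for a macroH2A, had a log2 change of 0.35, and H1f0, the linker histone of differentiated cells, one of 0.20. At 150 ± 5.11 FPKM in pregnant and 131 ± 14.8 FPKM in non-pregnant libraries (SD, n = 3 each), H1f0 stood above each clustered histone gene.

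None of the genes that make and end histone messages passed the test. Of 14 tested, 0 were called with limma (2 at an unadjusted p under 0.05, against 13.4% of all genes), 4 lay above 0, against 44.8%, and the median was -0.09. Slbp, which binds the stem-loop, had 11.1, 10.5 and 11.4 FPKM in pregnant libraries, against 11.0, 10.6 and 10.8 FPKM in non-pregnant libraries, and Npat, a coactivator of histone gene transcription, 5.95, 6.37 and 7.16 FPKM, against 6.78, 6.30 and 8.14 FPKM. The groups overlapped for both (limma adjusted p = 0.87 and 0.657). The smallest p of the list belonged to Ncbp2 of the cap-binding complex (log2 change 0.22), Lsm11 of the U7 particle that guides the cut (-0.27), Cpsf3, the nuclease that makes it (-0.14), and Hinfp, which binds H4 promoters (-0.11), with limma adjusted p from 0.34 to 0.503. The histone chaperones, which carry histones to DNA, had 0 of 18 called with limma (1 at an unadjusted p under 0.05, against 13.4% of all genes), 7 above 0, against 44.8%, and a median of -0.07. Among them Chaf1a of CAF-1 averaged 1.44 ± 0.535 FPKM in pregnant and 0.937 ± 0.0611 FPKM in non-pregnant libraries (SD, n = 3 each), and Ubn1 of the HIRA complex, Nap1l4 and Tonsl had log2 changes of -0.19, -0.11 and 0.21.

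Cell cycle genes are given because clustered histone messages belong to S phase. Of 23 tested S phase genes 0 were called with limma (5 at an unadjusted p under 0.05, all higher, against 7.09% of all genes), all 23 lay above 0, against 44.8% of all genes, with a median of 0.22, and 20 were highest in pregnant library 3. Centred on their own means, they had medians of 0.02, -0.04 and 0.38 in pregnant libraries 1 to 3, against -0.08, -0.11 and -0.17 in non-pregnant libraries 1 to 3. Of the 47 histone members 13, 4 and 11 were highest in pregnant libraries 1, 2 and 3 (11.3%, 7.49% and 16.9% of all genes), and 7, 2 and 10 in non-pregnant libraries 1, 2 and 3 (12.9%, 15.6% and 35.8% of all genes). Among 7 tested genes of G2 and M phase 0 were called with limma (3 at an unadjusted p under 0.05, all higher, against 7.09% of all genes) and all 7 lay above 0, with a median of 0.33. Mki67 had 3.64, 2.23 and 2.96 FPKM in pregnant libraries, against 1.38, 0.845 and 1.48 FPKM in non-pregnant libraries, without overlap (limma adjusted p = 0.229). The 4 smallest p of the S phase list were those of Uhrf1, Mcm5, Fen1 and Mcm2, with log2 changes of 0.94, 1.06, 0.20 and 0.72, and Top2a, Kif23 and Ccnb2 had 0.55, 0.48 and 0.33. Macrophage markers differed between the same groups, as given above, and were highest in pregnant library 1. The part of macrophage, S phase or mitotic transcripts in the histone values was not tested.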

How the data were processed

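RNA was measured in 6 libraries, 3 pregnant and 3 non-pregnant, made from 50 ng of total RNA with a ribosomal RNA depletion kit, per the labels' protocols. The authors deposited FPKM values for 21700 genes. Build mm10 and the tools HTSeq 0.13.5, DESeq2 1.30.1, STAR 2.7.9a and cutadapt 3.4 appear in the submitters' processing notes, without their roles, and no source used here gives the strand or multi-mapping settings. FPKM times GENCODE vM21 exon length was a whole multiple of 1 step per library for 98.5% of 96473 values above 0 (tolerance 0.01), which gave fragment numbers. Median-of-ratios scaling factors computed on the deposited FPKM lay within 0.0053% of 1, so the deposited values appear scaled that way and not by total fragments. Exact 95% intervals and the limit of 3 fragments for a 0 cover counting error only.

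Groups came from the sample titles. The 11412 genes averaging 1 FPKM or more were tested as log2(FPKM + 1) with limma 3.58.1 in R 4.3.3 (trended empirical Bayes, two-sided, pregnant minus non-pregnant), adjusted by Benjamini-Hochberg over all of them at 0.05. The text names members averaging at least 1 FPKM and those just below, the 4 smallest p of each pathway list, Mki67, Slbp and Npat; other names were chosen after their values were seen. The members and lists were chosen with earlier results of these data known. Alternatives were other pseudocounts, filters, scalings, priors, library weights, a replicate block, limma-voom on fragments and leaving out each library. Scripts were tested on simulated data. Python 3.11.15 with scipy 1.17.1, pandas 2.3.3 and, for figures, matplotlib 3.10.9 was used. Protein sequences were not analysed here.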

Additional observations from a re-analysis of the deposited data

How the results depend on the processing

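No histone gene passed the threshold in any alternative except library weights, where 6 of 47 did (Hist1h1a, Hist1h1b, Hist1h2af, Hist1h3b and Hist1h3c higher, Hist2h3c2 lower; adjusted p from 0.0123 to 0.0347), against 11.4% of all genes; non-pregnant library 3 then weighed 0.205 and non-pregnant library 1 3.68. Over all genes 10 were called in the main fit, 0 with no filter, 5 with robust empirical Bayes, 1301 with library weights, 1 with limma-voom, and 0 to 133 when 1 library was left out. The replicate block called 13; same-numbered libraries did not deviate together (r of 0.068, 0.019 and -0.138), so the numbers do not pair them. The median histone change lay between 0.01 and 0.09 in all alternatives. Of 1173 pairs of a named gene and an alternative, 51 reversed, none with a main change over 0.138 in size. With quantile normalisation Hist1h2be was at -0.01, Hist2h2ab at -0.04 and Hist4h4 at 0.01. With library weights Slbp was at -0.00451, Hist1h2bc 0.11, Hist1h2be -0.02, Hist1h1e 0.03, Hist1h1d 0.02, Hist3h2ba 0.02, Hist1h2bj 0.17, Hist2h3b -0.25, Hist2h4 0.02, Hist4h4 0.00483, Hist1h3i 0.34 and Hist2h2bb 0.22. Hist1h1d was at 0.01 with limma-voom and when scaled by the fragments of all genes, where Hist4h4 was at 0.00171. Leaving out 1 library gave Hist1h1d -0.05 to 0.04, Hist1h2bb -0.3 to 0.11, Hist1h2bc -0.22 to 0.04, Hist1h2bj -0.32 to 0.02, Hist1h3e -0.01 to 0.17, Hist1h3h -0.2 to 0.12, Hist1h3i -0.28 to 0.32, Hist1h4d -0.02 to 0.08, Hist1h4f -0.07 to 0.13, Hist1h4j -0.01 to 0.23, Hist2h2ab -0.13 to 0.17, Hist2h2bb -0.27 to 0.03, Hist2h2be -0.07 to 0.15, Hist2h3b -0.04 to 0.23, Hist2h4 -0.16 to 0.07, Hist3h2ba -0.12 to 0.06 and Hist4h4 -0.03 to 0.03. The cause was not tested. The short-ended members kept medians of 0.21 to 0.35, and the long-ended ones -0.12 to 0.01. The scaling by the fragments of all genes was added after seeing the data. Low members such as Hist1h3b rest on few fragments, which limits their precision.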
